A study of Mus musculus with 2 samples.

Results

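Single-exon incomplete splice match (ISM) models are transcript models that hold exactly 1 exon and that the authors' annotation software placed in the ISM class, the class for structures that match only a part of an annotated transcript's exon chain. They were taken as every model with the class ISM and an exon number of 1 in either of the 2 deposited tables. This gave 1775 models in replicate 1 and 2979 in replicate 2, or 4754 of the 244752 models of both tables. The tissue was whole adrenal gland of male B6CASTF1/J mice, an F1 hybrid strain, aged 25 days, from which total RNA was sequenced as long reads. Both libraries belong to 1 group with no treatment, so no condition is compared. The labels number them as biological replicates 1 and 2, give the tissues different animal numbers and give both the same donor record, so it is not clear that they are separate animals.

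In a messenger RNA the last exon usually carries the end of the coding sequence and the 3′ untranslated region, and the molecule is cleaved and polyadenylated a short way after a signal hexamer, most often AATAAA or ATTAAA. Long-read protocols copy RNA from its poly(A) tail, so a molecule that is broken, or a copy that stops early, leaves a read that covers the 3′ end alone. A read that covers only a last exon has no splice junction, and annotation software must then class it by its ends and by the exon it lies in. A model in the single-exon ISM class is therefore a structural label and does not by itself distinguish a short RNA from an incomplete copy of a long one.

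The libraries differed in more than depth. Replicate 1 held 793999 reads in all and replicate 2 held 1290342, and annotated genes of the mouse took 752432 and 1210671 of them. Scaled to 1000000 gene reads (CPM), the 20 genes of a steroidogenesis list gave 71900 in replicate 1 and 30000 in replicate 2, and a list of chromaffin cell genes gave 12600 and 8620, so defining markers of the adrenal cortex and medulla were present in both. A list of 15 liver genes had 171 reads in replicate 1 and 110469 in replicate 2, and 15 skeletal muscle genes had 3330 and 8. Values of liver genes below therefore rest on replicate 2 alone, and their part in the differences between the libraries was not tested except by leaving such genes out. In these bulk libraries fewer cells of a type and less RNA per cell cannot be told apart.

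Single-exon ISM models held a small share of the reads of the gland and were spread thinly over many genes. In annotated genes they took 7580 reads in replicate 1, which is 1.01% of gene reads (95% Clopper-Pearson interval 0.985 to 1.03), and 22019 reads in replicate 2, which is 1.82% (1.80 to 1.84). The mean share was 1.41% ± 0.574 (SD, n = 2). The intervals cover counting error only, and the gap between the libraries was far wider than either interval. Without the 502 genes that differed over 10-fold in CPM between the libraries, the shares were 1.01% in replicate 1 and 1.84% in replicate 2. The models lay in 1737 genes in replicate 1 and 2831 in replicate 2, or 11.4% and 16.8% of the genes with reads. Nearly all of these genes had a single such model (1726 of 1737 and 2746 of 2831), and no gene had more than 3. Of the models, 44.3% in replicate 1 and 36.3% in replicate 2 rested on 1 read, and the median model had 2 reads in both libraries. Protein-coding genes held 95.4% and 94.7% of the models. Within the ISM class, single-exon models were 6.76% and 7.61% of the models and took 10.7% and 15.3% of the reads.

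Some models that end far from annotated ends carry the sequence features described with the ends, and the sequences that show them are given here. The first set holds the last 30 bases of models whose exon is not annotated and whose 3′ end lies more than 50 bases from every annotated transcript end of the gene, chosen as models with many reads in 1 library or, for Gm2a, in both. Capitals mark the signal hexamer AATAAA. The Star model ends on the base where another single-exon model of the gene starts. All sequences are on the transcript strand, 5′ to 3′, read from GENCODE M21 transcripts by mm10 coordinates.
Star, replicate 1, chr8:25813384-25813413 (+): aatcccatgacAATAAAgaacatacatgca
Kng1, replicate 2, chr16:23081662-23081691 (+): gtggaAATAAAattcagacttgatgatttt
C1ra, replicate 2, chr6:124523094-124523123 (+): tatagAATAAActctcttttctgtaatccc
Ctsb, replicate 1, chr14:63143103-63143132 (+): ctgtgccAATAAAccaattctccctctgct
Gm2a, replicate 1, chr11:55110869-55110898 (+): ctggtctggcAATAAAtctttttaacttgc

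The second set shows ends followed by an A-rich stretch of transcript sequence, which is a run of A in Kcnk3 and Igf1 and a repeat of A and G in Pigr. Each line gives the last 10 bases of the model and the 20 bases after its end, and capitals mark every A after the end.
Kcnk3, replicate 2, chr5:30623470-30623499 (+): atgcagttatggAAgAAAAAAAAAAAAAAg
Igf1, replicate 2, chr10:87934329-87934358 (+): gtacttgactAAAAAAAAAgAAAAAAAgAA
Pigr, replicate 2, chr1:130851895-130851924 (+): aagaagaagaAgAAgAAgAAgAAgAAgAAg

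The models were last exons in the great majority. A model was counted as lying in a last exon when at least 90% of its bases fell inside the last exon of any annotated transcript of the gene with more than 1 exon. By this rule 1677 of 1775 models (94.5%) in replicate 1 and 2647 of 2979 (88.9%) in replicate 2 were in a last exon. First exons held 18 models (1.01%) in replicate 1 and 124 (4.16%) in replicate 2, and internal exons 5 and 50. A further 48 (2.70%) and 97 (3.26%) reached into introns or lay elsewhere in the gene, and 27 and 61 were outside annotated genes. The replicate 2 library thus had more models at the 5′ end and in the middle of genes. Counted by reads in annotated genes the order of the libraries turned, with 91.5% in a last exon in replicate 1 and 94.7% in replicate 2. Star, whose model reaches into an intron by this rule, held 488 of the 604 reads of such models in replicate 1. Without genes over 10-fold different in CPM the first-exon share in annotated genes was 1.04% in replicate 1 and 4.14% in replicate 2, so the gap was as wide without those genes.

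**Figure D1:**
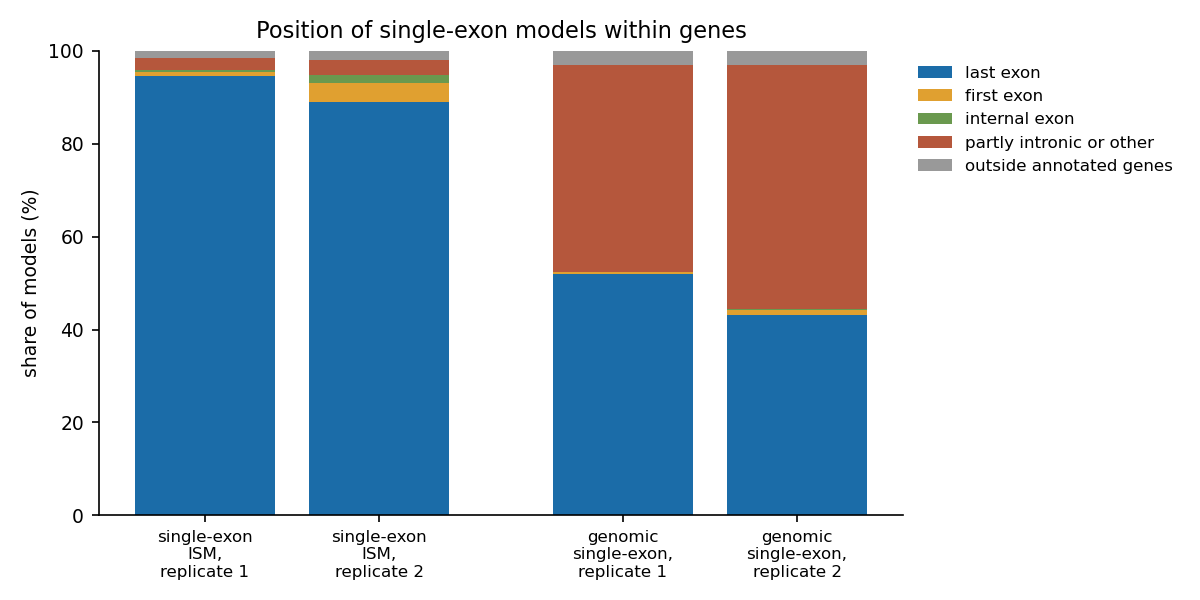
Share of models by position in the gene (y axis, percent of models) for single-exon ISM models and genomic-class single-exon models in each library. Last exons hold 94.5% and 88.9% of the single-exon ISM models, and the genomic class has far more models that reach into introns.

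Among the classes, the nearest in form are genomic-class single-exon models, which also have 1 exon in a known gene. In annotated genes 95.9% of single-exon ISM models lay in a last exon in replicate 1, against 53.6% of 7485 genomic single-exon models. In replicate 2 the shares were 90.7% of 2918 single-exon ISM models and 44.6% of 13238 genomic single-exon models. Fisher's exact test on numbers of models, two-sided, gave an adjusted p of 2.52e-298 in replicate 1 and a value under 1e-300 in replicate 2. These tests compare models of 1 library, and many models share a gene or an RNA, so they speak to the 2 model classes and not to a condition. The ISM class itself requires a match to annotated exons, so the tests cannot separate a preference for last exons from the class rule.

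Most members were copies of an annotated exon. In 1478 models (83.3%) of replicate 1 and 2418 (81.2%) of replicate 2 the deposited annotation marks the exon as known, and 1477 and 2418 of these had exactly the start and end of a GENCODE M21 exon. The coordinates of such a model are those of the annotated exon and not those of its reads, whose own ends are not in the tables analysed here. The other 297 and 561 models carried an exon marked as not in the annotation. Of the models in annotated genes, 1587 (90.8%) in replicate 1 and 2575 (88.2%) in replicate 2 overlapped annotated coding sequence. A further 107 and 247 lay in genes with coding sequence but overlapped none of it. These can lie in untranslated exons or reach into introns, as a Dhx40 model did in replicate 2. In 62 and 86 models the single exon held the whole coding sequence of an annotated transcript, so that a read over the exon could carry a complete reading frame. Examples were Gja1, which encodes the gap junction protein connexin 43, with 18 reads in replicate 1 and 44 in replicate 2, and Mgat1, an enzyme of N-glycan synthesis, with 14 and 26 reads. Agtr1a, which encodes an angiotensin II receptor, had 11 such reads of 242 gene reads in replicate 1. These 3 genes were chosen after their values were seen.

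First-exon and internal-exon models were short, and models reaching into introns long. The median length was 1078 bases in replicate 1 (quartiles 462 and 2036, range 11 to 6151) and 766 bases in replicate 2 (338 and 1576, range 11 to 5670). First-exon models had medians of 252 and 224 bases and internal-exon models 203 and 180 bases, while models that reached into introns had medians of 1738 and 1383 bases. Genomic single-exon models were longer, at 1606 and 1360 bases, and multi-exon ISM models longer still, at 2320 and 1954 bases. The median of replicate 2 was the shorter in every one of these classes, and known transcripts with more than 1 exon showed the same order, with read-weighted medians of 2394 bases in replicate 1 and 2037 in replicate 2. Among the 152 models that had the same ends and at least 5 reads in both libraries, the shortest were in Cox7a1 (119 bases), Ndufa5 (159 bases) and Rps3a1 (171 bases). The longest were in Asb1 (4839 bases), Ppp1r3b (4146 bases) and 6430548M08Rik (4090 bases).

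**Figure D2:**
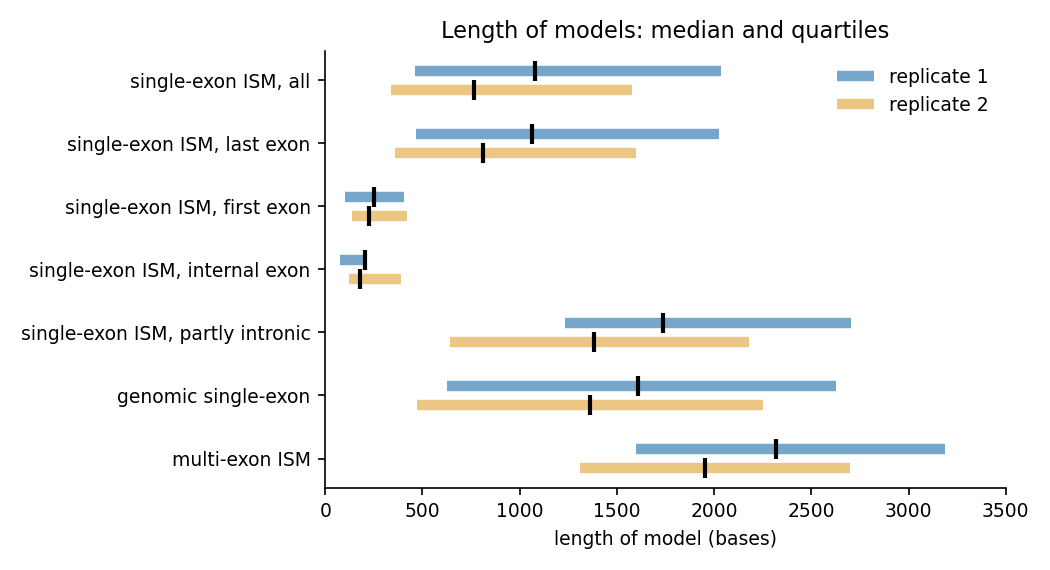
Length of models in bases (x axis), with bars for the quartiles and a tick for the median, for single-exon ISM models by position and for the other 2 classes in each library. First-exon and internal-exon models are the shortest, and the median of replicate 2 lies below that of replicate 1 in each class drawn, although its quartiles lie higher for first and internal exons.

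The named genes with single-exon ISM reads in both libraries included 4 that encode subunits of the respiratory chain. Ndufb3, a subunit of complex I, had 102 of its 151 reads in such a model in replicate 1 (67.5%) and 158 of 242 in replicate 2 (65.3%), on its last exon at chr1:58595649-58595964 of mm10. The shares of the libraries overlapped within their counting intervals. Uqcrq, a subunit of complex III, had 98 of 354 reads (27.7%) in replicate 1 and 559 of 1132 (49.4%) in replicate 2, on a last exon of 198 bases. Uqcrq thus had the lower share in replicate 1, and Fisher's exact test between the libraries gave an adjusted p of 5.40e-11. Ndufa5, another complex I subunit, had 7 of 114 reads in replicate 1 and 59 of 262 in replicate 2, and its lower share in replicate 1 also passed (exact test, adjusted p = 0.00193). Cox7a1, the heart and muscle form of a cytochrome oxidase subunit, had 8 of 98 and 18 of 150 reads, which did not pass the test. Among ribosomal protein genes, Rpl39 had 50 of 104 reads in replicate 1 and 173 of 303 in replicate 2, and Rps3a1 had 8 of 196 and 80 of 401. Both have processed copies elsewhere in the genome, so the assignment of their reads is uncertain.

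Other genes with such reads in both libraries had varied roles. Cidea, a lipid droplet protein of brown fat, had 125 of 584 reads (21.4%) in replicate 1 and 148 of 779 (19.0%) in replicate 2, on a last exon of 404 bases, and the counting intervals of the libraries overlapped (adjusted p = 1.00, exact test). Cyb5b, an outer mitochondrial membrane cytochrome b5, had 91 of 598 reads (15.2%) in replicate 1 and 122 of 303 (40.3%) in replicate 2. Fads1, the delta-5 desaturase, had 46 of 580 reads (7.93%) and 96 of 213 (45.1%). Both were lower in replicate 1, with adjusted p of 8.86e-14 for Cyb5b and 3.36e-27 for Fads1 in Fisher's exact test. Pcx, the mitochondrial pyruvate carboxylase, had 33 of 705 reads (4.68%) in replicate 1 and 123 of 993 (12.4%) in replicate 2, a difference that passed the exact test at an adjusted p of 2.49e-06. Col4a2, a basement membrane collagen, had 69 of 295 reads (23.4%) in replicate 1 and 32 of 211 (15.2%) in replicate 2, which did not pass the test (adjusted p = 0.292, exact). Trim35, Actr1b and Selenop, with 47, 37 and 10 reads in replicate 1 and 50, 36 and 142 in replicate 2, did not pass it either. Cdip1 had 12 of 122 reads in replicate 1 and 46 of 108 in replicate 2 and passed too (exact test, adjusted p = 7.57e-07).

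**Figure D3:**
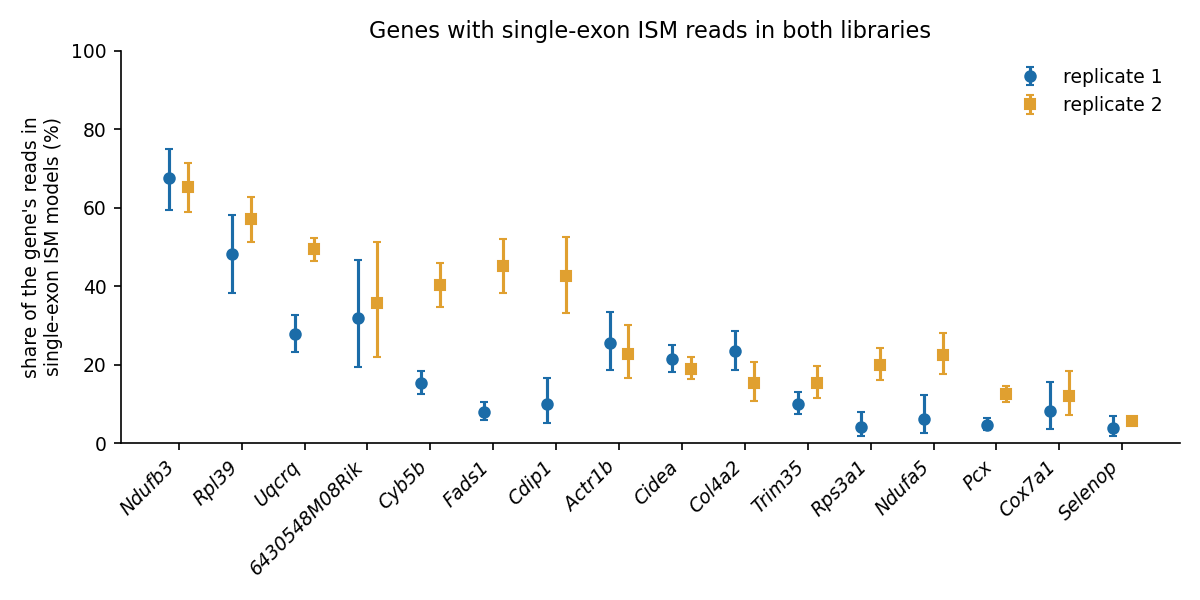
Share of each gene's reads in single-exon ISM models (y axis, percent) for 16 genes with such reads in both libraries, with 95% Clopper-Pearson intervals that cover counting error only. Ndufb3 and Cidea have overlapping intervals in the 2 libraries, while Uqcrq, Cyb5b, Fads1 and Cdip1 lie lower in replicate 1.

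Several models with many reads were on genes of the liver and were seen in replicate 2 alone. Ahsg, which encodes the plasma protein fetuin-A, had no read at all in replicate 1 and 4648 in replicate 2, of which 1620 (34.9%) were in a model of its last exon of 647 bases. Mat1a, the liver methionine adenosyltransferase, had 217 of 704 reads (30.8%) in replicate 2, and Fga, the fibrinogen alpha chain, 192 of 3033 (6.33%). Kng1, the kininogen precursor, had 412 of 1876 reads (22.0%) in replicate 2. Of these, 406 were in a model of 212 bases that ends 387 bases short of the nearest annotated end, and replicate 1 had 1 Kng1 read in all. Mgst1, a microsomal glutathione transferase also present in replicate 1, had 0 of 496 reads there and 166 of 2584 (6.42%) in replicate 2. The 15-gene liver list as a whole had 2043 of 110469 reads (1.85%) in such models in replicate 2, and Ahsg gave 1620 of these. In replicate 1 the list had 0 of 171, which allows up to 2.13%. Trf, transferrin, gave 165 of those 171 reads, so the bound says little of the other liver genes. With 31858 reads in replicate 2, Trf had no such read there either, and Alb, albumin, with 21951 reads, had 2. A high level of a gene thus did not always come with many such reads.

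Among steroidogenesis genes most single-exon ISM reads came from 1 gene. The list had 524 of 54119 reads in such models in replicate 1 (0.968%) and 55 of 36370 (0.151%) in replicate 2. Star, the protein that brings cholesterol to the inner mitochondrial membrane, gave 488 of the 524 reads. Fdx1, the ferredoxin that passes electrons to mitochondrial P450 enzymes, had 9 of 532 reads in replicate 1 and 35 of 632 in replicate 2. Cyp21a1, with 9935 reads in replicate 1 and 5105 in replicate 2, had none in either library. Mc2r, the ACTH receptor, had 5 of 30 reads in replicate 1 and 0 of 67 in replicate 2, where 29 were in genomic-class single-exon models. Of the 20 genes tested, 2 were higher in replicate 1 (Star and Mc2r) and 1 was lower (Fdx1), where the test called 1.11% of all 5749 genes as higher and 3.79% as lower. With genomic single-exon reads added, the share of Mc2r was 16.7% in replicate 1 and 43.3% in replicate 2 and was not called (exact test, adjusted p = 0.130), and Fdx1 stayed lower (adjusted p = 0.00284, exact). Chromaffin genes had 75 of 9500 reads (0.789%) in replicate 1 and 147 of 10433 (1.41%) in replicate 2, led by Scg2, a granin, with 55 reads in replicate 1 and 0 in replicate 2, and by Chga, chromogranin A, with 0 and 91. Genomic single-exon models held 64 reads of Scg2 in replicate 2 and 67 of Chga in replicate 1. The summed share of Scg2 was 3.49% in replicate 1 and 7.53% in replicate 2, lower where the ISM share was higher (adjusted p = 7.59e-04, exact test), and that of Chga was 3.10% and 3.02% (adjusted p = 1.00, exact test). The 8 fat genes had 146 of 4117 reads (3.55%) in replicate 1 and 225 of 3997 (5.63%) in replicate 2, most of them in Cidea. Splicing factor genes had 3 of 3240 reads in replicate 1 and 29 of 3769 in replicate 2. Nuclear long noncoding RNAs had 0 of 228 reads and 4 of 3622. The endothelial list had 13 of 560 and 14 of 770, the stroma list 8 of 1014 and 17 of 1288, and the muscle list 19 of 3330 in replicate 1 and 0 of 8 in replicate 2.

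Models outside last exons were few and mostly small. Hk2, hexokinase 2, had 2 reads in a first-exon model in replicate 1 and 12 in replicate 2. Fam32a had 0 reads in replicate 1 and 18 in replicate 2, 15 of them in a first-exon model of 131 bases. The 5 reads of Spink10 (2 and 3) were all it had. Mup17 and Mup2 had 6 and 5 first-exon reads in replicate 2, but major urinary protein genes are near-identical copies and their assignment is uncertain. In internal exons, Gm49673 had 14 of 25 reads in replicate 1 and 0 of 15 in replicate 2, and Kcnma1, a calcium-activated potassium channel, 4 and 0 reads. Zcchc9 had 9 internal-exon reads in replicate 2, while its 1 single-exon ISM read in replicate 1 was in a last-exon model. Ces1g and Fgb, both liver genes, had internal-exon models of 6 and 5 reads in replicate 2. Models that reached into introns were larger and included Star, Gpd1, Nadk, Dhx40 and Aldh1l1. Nadk, the cytosolic NAD kinase, had 0 of 635 reads in replicate 1 and 55 of 684 in replicate 2. In Aldh1l1, a folate enzyme, 0 of 153 and 38 of 1153 reads were in such a model.

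The share of a gene's reads in single-exon ISM models was then compared between the libraries for all 5749 genes with at least 20 reads in each. The share differed in 282 genes (4.91% of those tested; Fisher's exact test per gene, Benjamini-Hochberg adjusted p under 0.05). In 64 of them (1.11%) it was higher in replicate 1 and in 218 (3.79%) lower. The test compares 2 libraries of 1 group and says nothing of a condition. In most called genes the library without single-exon ISM reads had single-exon reads of the genomic class. Of the 64 genes higher in replicate 1, 60 had no single-exon ISM read in replicate 2 and did have genomic single-exon reads there. Of the 218 genes lower in replicate 1, 146 had no single-exon ISM read in replicate 1 but had genomic single-exon reads. Only 2 and 12 had neither kind of read in the library with no ISM reads. Genomic single-exon models held more of the gene reads, at 3.72% in replicate 1 and 4.93% in replicate 2. How many of all 5749 tested genes had genomic single-exon reads and no ISM read in 1 library was not counted. The numbers above therefore do not show an excess among called genes.

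Star had the largest number of reads in such a model in replicate 1. In that library it had 488 reads in a single-exon ISM model at chr8:25812619-25813413 of mm10, of which 80.6% of the bases lie in the last exon, and 175 in a genomic single-exon model that starts on the base where the ISM model ends, 25813413, and runs to 25815299. In replicate 2 it had no single-exon ISM read of 5082 reads, but 574 reads in a genomic single-exon model that starts on the same base, 25812619, and runs to 25814975. In single-exon models of both classes together Star had 688 of 6524 reads (10.5%) in replicate 1 and 623 of 5082 (12.3%) in replicate 2. The ISM share alone was higher in replicate 1 by 7.48 percentage points (adjusted p = 8.56e-123, Fisher's exact test). The difference in the summed share, replicate 1 minus replicate 2, was -1.71 points and did not pass the test (adjusted p = 0.0619, Fisher's exact test).

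Gpd1, the cytosolic glycerol-3-phosphate dehydrogenase, showed the opposite order on identical coordinates. The interval chr15:99722456-99725005 was a genomic single-exon model with 113 reads in replicate 1 and a single-exon ISM model with 412 reads in replicate 2. Sdc3, the proteoglycan syndecan-3, had 106 of 201 reads in replicate 1 in a genomic model at chr4:130822643-130826313, and 143 of 162 in replicate 2 in an ISM model with the same start that ends 6 bases further on. Scd2, a stearoyl-CoA desaturase, had 136 ISM reads in replicate 1 and 122 genomic reads in replicate 2, in models whose starts lie 5 bases apart. Such shared intervals were rare. Both ends lay within 50 bases of a genomic model of the other library in 26 of 1748 ISM models (1.49%) of replicate 1. In replicate 2 this held for 28 of 2918 (0.960%), and the ends were identical in 7 and 6 models. In Thrsp, a regulator of lipid synthesis, 155 reads in replicate 1 were in an ISM model of the last exon of 578 bases, while 311 reads in replicate 2 were in a genomic model of 1 base at the same annotated end. A model of 1 base cannot be the extent of its reads, so lengths in the genomic class are not read lengths. The transcription factor gene Fosl2 had 31 of 40 reads as ISM in replicate 1 and 83 of 86 as genomic in replicate 2, and Prdx2 and Glrx5 showed the same order, with 75 and 60 ISM reads in replicate 1 and 67 and 92 genomic reads in replicate 2. Rxra, the retinoid X receptor alpha gene, had 8 genomic reads of 20 in replicate 1 and 75 ISM reads of 88 in replicate 2. Abl1, Cfl1 and Lasp1 had 36, 35 and 25 genomic reads in replicate 1 and 45, 120 and 62 ISM reads in replicate 2. Rnf44, Leng8, Kpnb1 and Baz1b, with 16, 24, 21 and 14 ISM reads in replicate 1, had none in replicate 2 and 41, 32, 15 and 2 genomic reads there.

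With the classes summed, the single-exon share of these genes followed several courses. It stayed lower in replicate 1 in Gpd1, at 10.2% against 34.1% in replicate 2 (adjusted p = 7.64e-42, exact test), and in Sdc3, Rxra, Cfl1 and Lasp1, with differences of -35.5, -45.2, -30.7 and -31.5 points. It stayed higher in replicate 1 in Baz1b, by 44.3 points (exact test, adjusted p = 0.0328). In Scd2, Leng8 and Fosl2 the direction turned, with -21.5, -34.6 and -19.0 points in the summed share, all called. In Thrsp, Prdx2, Glrx5, Rnf44, Kpnb1 and Abl1 the summed share was not called.

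**Figure D4:**
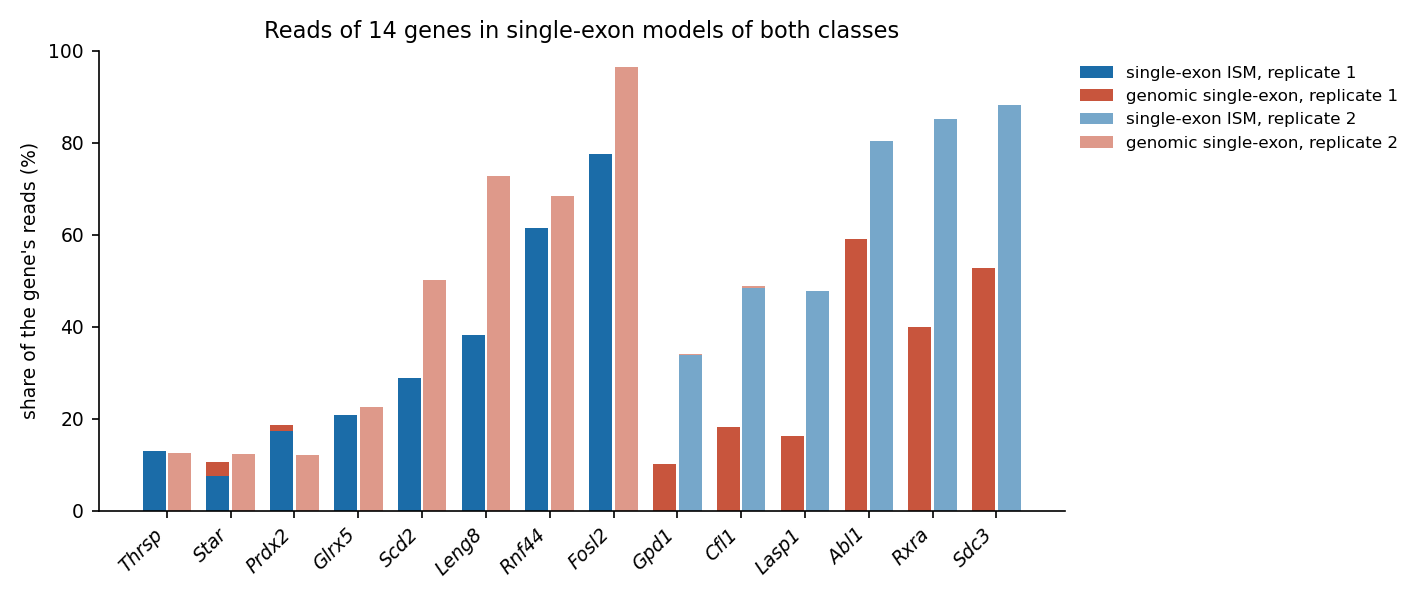
Share of each gene's reads (y axis, percent) in single-exon ISM and genomic single-exon models for 14 genes in each library, as stacked bars. In each gene 1 library has ISM reads and the other genomic reads alone; Star and Prdx2 in replicate 1 and Gpd1 and Cfl1 in replicate 2 have both.

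Across genes the single-exon reads of a library tended to sit wholly in 1 class. Among genes with at least 10 single-exon reads of the 2 classes, 127 of 560 in replicate 1 had at least 90% of them in the ISM class and 399 had at most 10%, with 34 in between. In replicate 2 the numbers were 366, 1079 and 172 of 1617. Of the 469 genes with at least 10 such reads in both libraries, 57 were ISM in both, 270 genomic in both, 48 ISM in replicate 1 and genomic in replicate 2, and 40 the reverse. The other 54 were in between in at least 1 library. Ndufb3, Uqcrq, Cidea, Cyb5b and Fads1 were among those with their reads in the ISM class in both.

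When the 2 classes were summed, a test added after the class exchange was seen, 362 of 5749 genes (6.30%) differed between the libraries, 24 of them (0.417%) higher in replicate 1 and 338 (5.88%) lower. Of the 282 genes called on ISM reads alone, 118 stayed called in the same direction, 15 turned round and 149 were no longer called. Of the 64 genes higher in replicate 1, 4 kept their call and direction, and of the 218 lower ones 114 did. Summed over genes, both classes took 35534 reads in replicate 1 (4.72% of gene reads) and 81685 in replicate 2 (6.75%). Genes that kept their call included Epas1, the hypoxia factor HIF-2 alpha, with 4 of 78 reads in replicate 1 and 35 of 46 in replicate 2, and no genomic single-exon read in either. Myadm, with 0 of 84 and 15 of 21 reads, and Dhx40, with 0 of 21 and 47 of 84, likewise had no genomic reads. Dhcr7, an enzyme of late cholesterol synthesis named after its values were seen, was also among them, with 22 of 585 reads in replicate 1 and 68 of 233 in replicate 2.

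Recurrence was measured between the libraries. A model with the same gene, strand and both ends within 50 bases was found in the other library for 662 models, which are 37.9% of the 1748 in annotated genes of replicate 1 and 22.7% of the 2918 of replicate 2. Of these, 586 and 592 were known-exon models with annotated coordinates, so their matches do not show that reads ended at the same places. Among unannotated-exon models, 76 of 270 (28.1%) in replicate 1 and 70 of 500 (14.0%) in replicate 2 had a match. A genomic-class model overlapped at least 50% of a further 403 models (23.1%, with 32.6% of the reads) in replicate 1 and 509 (17.4%, with 26.1% of the reads) in replicate 2. In 508 and 1358 models the gene had reads in the other library but no such model, and in 36 and 245 the gene had no read there. At the level of genes, 790 had single-exon ISM models in both libraries, 45.5% of those of replicate 1 and 27.9% of those of replicate 2.

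The 3′ ends lay mostly on annotated transcript ends, which for known-exon models follows from their annotated coordinates. In annotated genes 1570 of 1748 models (89.8%) in replicate 1 and 2436 of 2918 (83.5%) in replicate 2 ended within 50 bases of an annotated end. Weighted by reads the shares were 85.9% in replicate 1 and 89.2% in replicate 2. For multi-exon ISM models the shares were 82.8% in replicate 1 and 74.7% in replicate 2 (adjusted p = 7.97e-16 and 7.36e-28, Fisher's exact test on models of 1 library). The test cannot compare where reads ended, because known-exon models take annotated coordinates and were near an annotated end in 98.2% and 93.4%. Among models with an unannotated exon, 119 of 270 (44.1%) and 178 of 500 (35.6%) ended near an annotated end, below the multi-exon ISM shares. Of the remaining models of this kind, 151 and 322, those that fell short of the nearest annotated end numbered 91 and 216, and those past it 60 and 106.

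These 151 and 322 ends away from the annotation were examined for signal hexamers in the last 50 bases of the model, AATAAA or ATTAAA on the transcript strand. An annotated exon covered the window for 118 (78.1%) and 250 (77.6%) of them, so the check is void for the full sets and the shares hold for ends inside annotated exons. There, 74 of 118 ends in replicate 1 (62.7%, interval 53.3 to 71.4) and 129 of 250 in replicate 2 (51.6%, 45.2 to 57.9) had a hexamer. Of 34305 annotated ends of coding transcripts with last exons of at least 250 bases, taken with or without reads here, 63.3% had one. Among windows of the same size 200 bases before those ends, 4.88% did. The replicate 1 interval holds the 63.3% of all annotated ends and the replicate 2 interval lies under it. Both lie above the share of the windows upstream. Genomic single-exon ends away from the annotation had a hexamer in 391 of 843 (46.4%) and 566 of 1687 (33.6%), in replicates 1 and 2. Their windows could be read for 25.0% and 22.1% of models. Hexamers before such ends were thus not particular to the ISM class. All 10 unannotated-exon ISM ends away from the annotation with at least 10 reads in replicate 1 had a hexamer, and 19 of 34 (55.9%) in replicate 2. Known-exon models, most of which end at annotated ends, had it in 82.4% and 76.7%. Unannotated-exon models that end near an annotated end had it in 79.8% and 80.3%. These shares, which are of ends with reads, lie above both intervals of the ends away from the annotation. Known-exon models that end elsewhere had it in 4 of 26 (15.4%) and 7 of 159 (4.40%). A hexamer is a match of letters and does not show that a site is used. Some models end on the base where another single-exon model of the gene starts in the same library, as in Star. This held for 13 (4.81%) and 46 (9.20%) of all unannotated-exon models in annotated genes, and for 1.35% and 2.27% of known-exon models. How many of the 151 and 322 ends are of this kind was not counted.

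**Figure D5:**
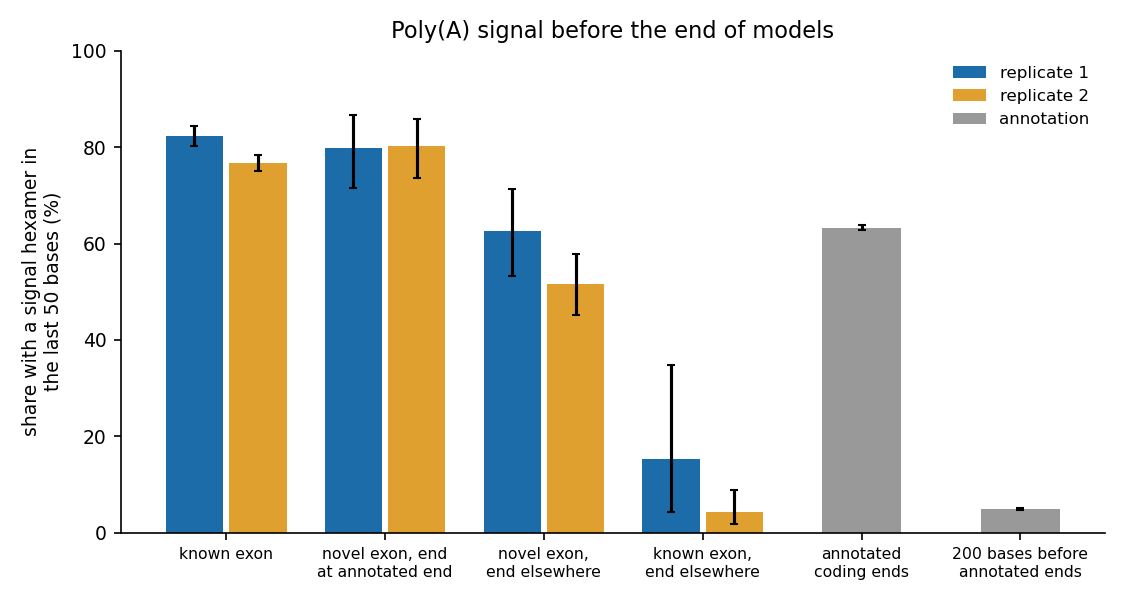
Share of models with AATAAA or ATTAAA in their last 50 bases (y axis, percent), by kind of exon and end, with 95% Clopper-Pearson intervals, beside annotated coding transcript ends and windows 200 bases before them. Unannotated-exon models ending away from annotated ends have shares of 62.7% and 51.6%, against 4.88% in the windows before annotated ends.

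Several of these ends were found in both libraries. Of the 151 in replicate 1, 38 (25.2%) had an end of an unannotated-exon model of the same gene within 50 bases in replicate 2, and 36 of the 38 lay within 10 bases. Of the 34 whose window could be read, 26 (76.5%, interval 58.8 to 89.3) had a hexamer. The ends are those of models and not of single reads. Gm2a, the GM2 ganglioside activator, had a model of 12 reads whose end is position 55110898 in replicate 1. In replicate 2 the end of a Gm2a model of 34 reads was 1 base away, and both lay well before the annotated end. Hist1h2bc, a histone H2B gene, had models of 13 and 35 reads with ends 2 bases apart, 429 bases before the annotated end in replicate 1. Samm50, of the mitochondrial outer membrane sorting complex, had models of 9 and 22 reads with ends 1 base apart. Ivd, isovaleryl-CoA dehydrogenase, had a model of 10 reads in each library with ends 1 base apart, 333 bases past the annotated end in replicate 1. These genes were chosen after their values were seen.

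The 20 bases after the end were read in the same way for A-rich stretches (at least 12 A), since a run of A in the RNA can bind an oligo-dT primer. They could be read for 118 of 151 ends (78.1%) in replicate 1 and 241 of 322 (74.8%) in replicate 2, so this check too is void for the full sets. At least 12 A were found after 10 of 118 ends in replicate 1 (8.47%) and after 45 of 241 in replicate 2 (18.7%), against 1.34% of the windows 200 bases before annotated ends. In replicates 1 and 2, 134 of 924 (14.5%) and 349 of 1890 (18.5%) readable genomic single-exon ends away from the annotation had them too. A-rich stretches were thus not particular to the ISM class. Kcnk3, the TASK-1 potassium channel of the adrenal cortex, had a model of 90 reads in replicate 2. It had 16 A in the next 20 bases and no hexamer in its last 50. Igf1 had a model of 33 reads with 18 A after its end. Pigr, the polymeric immunoglobulin receptor, had a model of 46 reads with 13 A inside a longer repeat. Star had 4 A, Kng1 3 and Gm2a 0 after their ends, and the hexamers shown above before them. Other models with many reads had neither feature at their ends. Serpina3k, a liver serpin, had a model of 95 reads in replicate 2 with no hexamer and 5 A after the end. Igfbp4, an insulin-like growth factor binding protein, had models of 8 reads in replicate 1 and 60 in replicate 2, with ends 1 base apart. Neither Igfbp4 model had a hexamer, and 3 A followed the end in replicate 2. Whether any of these reads began at such a stretch was not tested. Kcnk3, Igf1, Pigr, Serpina3k and Igfbp4 were chosen after their values were seen.

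A gene with more reads has more chances to hold a single-exon ISM read, and the share of genes with any went up with gene reads while the share of reads did not. Among genes with 20 to 49 reads, 14.8% in replicate 1 and 22.6% in replicate 2 had any, and among genes with at least 500 reads 48.7% and 48.3%. The share of reads was 1.38% and 2.83% in the genes with 20 to 49 reads and 0.776% and 1.37% in those with at least 500. By exon number of the leading transcript the share of genes with such reads ran between 18.4% and 25.8% in replicate 1 and between 27.4% and 30.6% in replicate 2. The share of reads was highest in genes of 2 exons, at 2.75% and 4.60%. By length of the last exon the share of reads was 0.357% and 1.33% for exons of up to 200 bases, 0.643% and 1.15% for 201 to 500 bases, 0.666% and 1.58% for 501 to 1000 bases, and 0.840% and 2.51% for 1001 to 2000 bases. It was 2.17% and 3.11% for 2001 to 4000 bases and 1.11% and 1.49% for longer exons, so it did not go up throughout. Of genes with at least 20 reads, 19.5% in replicate 1 and 29.0% in replicate 2 had any single-exon ISM read, and 41 and 162 genes had at least 25% of their reads in them. These shares are descriptions and carry no test.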

How the data were processed

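Long-read RNA-seq of adrenal gland was deposited as 1 table of transcript models for each of 2 libraries, with raw read counts per model by the authors and their model classes; genes are named as in GENCODE M21 on mm10, per the file headers and the labels. The counts as deposited are not normalized. Members and gene lists were chosen with earlier results of these data known. Each model was placed against GENCODE M21 exons: a last-exon model has at least 90% of its bases in a last exon of a transcript with more than 1 exon. Ends and matches between libraries used a tolerance of 50 bases. Shares have 95% Clopper-Pearson intervals, which cover counting error only. Every gene that reached 20 reads in both libraries was compared by a two-sided Fisher's exact test, and p-values were adjusted over all of them by Benjamini and Hochberg's method. Since both libraries belong to 1 group, p-values measure the difference between these 2 libraries, which may be technical. Sequences were read from GENCODE M21 transcripts by exon coordinates, so the planned reading from a genome was not run. Python 3.11.15, pandas 2.3.3, NumPy 2.4.6 and SciPy 1.17.1 were used, and the per-gene test was tested on simulated data. Genes named by rule are the 20 with the highest mean CPM of single-exon ISM reads and the 10 with the highest share where both libraries reached 100 reads. They also include the 10 models with the most reads in each library and the 5 largest called differences in each direction. The 3 longest and 3 shortest shared models, the 5 leading genes of each position class, and the leading members of each list complete them. Other genes in the text were chosen after their values were seen. The tables hold 793999 and 1290342 reads.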

Additional observations from a re-analysis of the deposited data

How the results depend on the processing

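Of 40 alternatives that use both libraries, 33 stayed within the spread between the libraries, within 1.5 times for counts of genes or, for last exons and annotated ends, on the same side of the test against the other class in both libraries. Weighting by reads turned the order of the libraries: the share in a last exon was 91.5% in replicate 1 and 94.7% in replicate 2, and the share near annotated ends 85.9% and 89.2%. Adding genomic single-exon reads gave 362 called genes against 282, which is within 1.5 times by number alone. Only 133 genes were called in both settings, and 15 of them turned direction. The mean share of 1.41% of gene reads became 13.0% when taken of ISM reads, 5.73% with genomic single-exon models added, and 5.98% with these added and without genes over 10-fold different in CPM; the last 2 were chosen after seeing the data. The mean of the median lengths was 1155 bases for models with at least 2 reads, against 922 bases for all. The number of genes that differed between the libraries was 178 among genes with at least 100 reads, where fewer genes were tested, against 282. The share of ends with a signal hexamer was 43.5% with AATAAA alone and 49.0% in the last 30 bases, against 57.2%; reading it through transcripts was chosen after seeing the data. With either library left out the values are those of the other alone, which is no test of stability: 1.01 to 1.82% of gene reads, 90.7 to 95.9% of models in a last exon, 83.5 to 89.8% near annotated ends, median lengths of 766 to 1078 bases, 51.6 to 62.7% with a hexamer and 8.47 to 18.7% with an A-rich stretch. No paired analysis was possible because the 2 libraries form 1 group and no groups share replicate numbers. The planned tests on genome sequence were not run. Among the 469 genes with at least 10 single-exon reads of the 2 classes in both libraries, 48 and 40 were in opposite classes. Another 57 were ISM in both and 270 genomic in both. Models of opposite classes on the same interval were rare. A gene's share in the ISM class alone depends on which class holds its single-exon reads, and the cause was not tested. Depth limits the 44.3% and 36.3% of models with 1 read.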
